A study of Mus musculus with 2744 samples.

Results

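Day 6 neurons with many Egfp reads were set against Day 6 neurons with few or none, in cultures of mouse embryonic stem cells differentiating into motor neurons. The members were chosen by their own reads: from the Day 6 plates that carried no eGFP tag, cells in which at least 500 genes had a read were kept, and a cell counted as a neuron where Stmn2, a microtubule regulator of growing neurons, reached 500 CPM (the gene's reads scaled to 1000000 gene reads of the cell). Neurons at 1000 CPM of Egfp or more are called Egfp-high here and neurons under 100 CPM Egfp-low. The rule gave 87 Egfp-high and 36 Egfp-low neurons, together 5.02% of the 2448 cells kept from 2744 in all. The other Day 6 cells of these plates were 10 neurons with Egfp between the cutoffs and the cells with Stmn2 under 500 CPM, which made up 68.7% of the cells kept from these plates.

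The study followed single cells over Days 2 to 6 in 2 biological replicates, a main and a pilot experiment, and sequenced each sorted cell by a modified CEL-seq, in which the messenger RNA of a well takes up a barcode and is then amplified through transcription. Of the Egfp-high neurons, 75 came from 4 main plates and 12 from 2 pilot plates; of the Egfp-low neurons, 33 were main and 3 were pilot. A further set, Day 6 cells labelled eGFP++, came from 3 main plates and 1 pilot plate, and 72.4% of those kept were neurons by the same Stmn2 rule, of which 21 were pilot cells (9.01%) and the others main cells; their Egfp reads chose none of them. All groups shared the same embryoid body differentiation and papain dissociation. The labels name no cell line, no allele and no promoter behind eGFP, no agent given during the days, and no gate for eGFP++, so what Egfp reads mark was taken from no label. The 2 experiments are the replicates (n = 2), because the cells of 1 culture share its history.

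In the ventral spinal cord, motor neurons arise from Olig2 progenitors and are directed by the LIM homeodomain factors Isl1 and Lhx3, which act in a complex on motor neuron genes, while Lhx3 without Isl1 is known to direct the neighbouring V2 interneurons. V2 cells then part into excitatory V2a cells and inhibitory V2b cells, marked by Gata2, Gata3 and Tal1. Motor neurons use acetylcholine and need Chat, its synthetic enzyme, and Slc18a3, its vesicular transporter; inhibitory interneurons use GABA or glycine and need Slc32a1, the vesicular transporter of both.

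The 250 bases before the RefSeq start of Slc10a4 (chromosome 5, plus strand, chr5:73006654-73006903) and Cntn2 (chromosome 1, minus strand, chr1:132542941-132543190), which were higher in Egfp-high neurons, and of Gata3 (chromosome 2, minus strand, chr2:9878601-9878850), which was read in Egfp-low neurons, are shown so that the genes the comparison turned on can be seen beside each other (RefSeq, GRCm38.p6, 5′ to 3′). Capitals mark matches, on either strand, to TAATTA (a homeodomain core), GATA (the core bound by GATA factors) and CANNTG (the E-box bound by basic helix-loop-helix factors such as Tal1 and Neurog2).
Slc10a4: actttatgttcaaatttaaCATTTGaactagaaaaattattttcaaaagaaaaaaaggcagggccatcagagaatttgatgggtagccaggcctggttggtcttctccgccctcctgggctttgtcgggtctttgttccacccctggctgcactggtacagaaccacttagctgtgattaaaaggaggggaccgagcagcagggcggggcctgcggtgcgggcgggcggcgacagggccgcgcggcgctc
Cntn2: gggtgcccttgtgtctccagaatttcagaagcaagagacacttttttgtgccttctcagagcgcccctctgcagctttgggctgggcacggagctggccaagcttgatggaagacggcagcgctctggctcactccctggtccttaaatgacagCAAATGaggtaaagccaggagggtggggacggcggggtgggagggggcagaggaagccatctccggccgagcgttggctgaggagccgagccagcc
Gata3: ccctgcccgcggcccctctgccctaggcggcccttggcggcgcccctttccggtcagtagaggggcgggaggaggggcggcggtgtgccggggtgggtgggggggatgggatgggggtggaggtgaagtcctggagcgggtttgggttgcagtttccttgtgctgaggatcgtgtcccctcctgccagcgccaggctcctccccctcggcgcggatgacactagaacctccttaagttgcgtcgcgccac
The windows of Slc10a4 and Cntn2 held 1 CANNTG each and none of the other motifs, and the window of Gata3 held no match to any of them. Of 32851 windows of this length, 66.2% held CANNTG, 53.6% GATA and 4.84% TAATTA. A match describes the letters of a window and is not a binding site.

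The cutoffs, the depth and the background bear on every value that follows. Egfp itself had a median of 8947 CPM in main and 8936 CPM in pilot Egfp-high neurons, against 0 CPM in main and 33.5 CPM in pilot Egfp-low neurons, as the rule sets. Around the upper cutoff, the nearest neuron inside held 1000 CPM (main) and 1441 CPM (pilot), and the nearest outside 889 and 120 CPM. Around the lower cutoff, the nearest values below were 88.9 and 72.9 CPM, and the nearest above 184.3 and 120 CPM. The nearest Stmn2 values were 500.2 and 592 CPM inside, and 495.1 and 412.9 CPM outside. An Egfp read as such was common: 14 of 33 main and 2 of 3 pilot Egfp-low neurons held one. So did 91 of the kept Day 2 cells (20.9%), of which 0 reached 1000 CPM. All 91 were main cells (25.2% of the main Day 2 cells), and 0 of the kept pilot Day 2 cells held an Egfp read. The share with a read was 12.8% on Day 3, 4.58% on Day 4 and 69.5% on Day 5. The median Egfp-high neuron held 179610 gene reads and 2665 genes in the main experiment, and 1182260 reads and 4675.5 genes in the pilot experiment. The median Egfp-low neuron held 134915 reads and 2593 genes, and 408482 reads and 2353 genes. Spike-in RNA took 13.3% and 12.1% of the reads of the main and pilot Egfp-high sums, and 17.5% and 18.2% of those of the Egfp-low sums; the part of depth and RNA yield in the results was not tested. Egfp-low neurons made up between 16.7% (plate TM018) and 24% (plate RPI37) of the neurons on 5 plates and 42.4% on plate RPI39, which held 14 of the 36. No 2 members had identical counts.

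**Figure D1:**
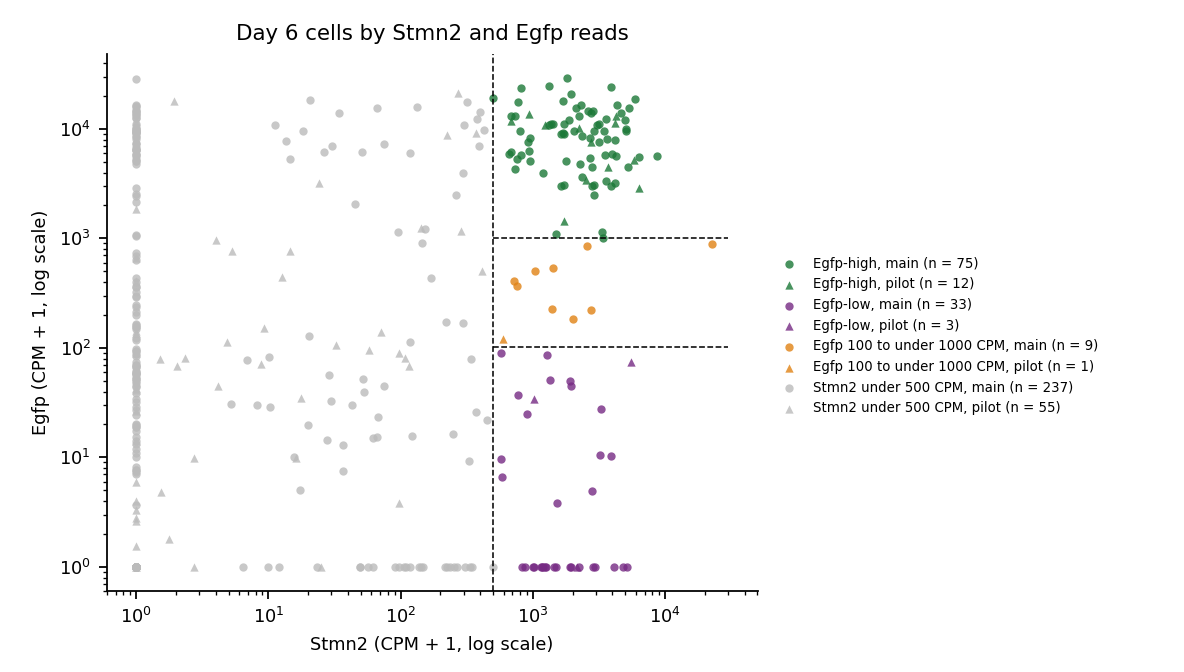
Each Day 6 cell by its Stmn2 reads (x axis) and its Egfp reads (y axis), both as CPM + 1 on log axes, with dashed lines at the 500, 100 and 1000 CPM cutoffs, circles for main and triangles for pilot cells. The 87 Egfp-high and 36 Egfp-low neurons are separated by 10 cells between the cutoffs, and 80 of the grey cells with low Stmn2, 27.4%, lie above 1000 CPM of Egfp.

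The marker lists followed the working description of motor against other neurons in part. The 9 motor neuron markers other than Egfp summed to 725 CPM in the main and 798 CPM in the pilot Egfp-high neurons, against 238.02 and 362.5 CPM in the Egfp-low neurons, and did not overlap between the groups over the plates (627 to 824 against 0 to 477.3 CPM). The 17 markers of ventral and other interneurons summed to 98.2 and 47.2 CPM in the Egfp-high neurons, against 1802 and 280 CPM in the Egfp-low neurons, again with no overlap over the plates (0.319 to 156.6 against 236.7 to 2542 CPM). Lhx3 and Lhx1 did not follow this line, as given below, and the groups are therefore called by their Egfp reads. At 0 in Egfp-high neurons stood 0 of the 9 motor markers for main sums and 1 for pilot sums, against 1 and 5 in Egfp-low neurons; of the 14297 genes tested 2006 and 3889 stood at 0 in Egfp-high neurons, against 3020 and 8392 in Egfp-low neurons.

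Slc10a4, Cntn2 and Dlk1 were higher in Egfp-high than in Egfp-low neurons, and the V2b genes Gata3 and Tal1, read in Egfp-low neurons, were all but unread in Egfp-high neurons, while 0 of the 9 motor neuron markers passed over the experiments. Genes were tested on sums of reads, 1 for every group in every experiment, with the experiment as a term (edgeR quasi-likelihood, Benjamini-Hochberg over all genes, threshold 0.05). Of 14297 genes tested, 6 were called, 0.042%, of which 3 rose (Slc10a4, Cntn2 and Dlk1) and 3 fell (Gata3, Tal1 and Slc25a47), and 3.31% had an unadjusted p under 0.05. In such sums, fewer cells that use a gene and less of its RNA per cell cannot be told apart. The test had little reach at this size: on simulated sums for this comparison it called 0 of 50 genes changed 4-fold, 1 of 50 changed 16-fold and 7 of 50 changed 64-fold. The median fitted log2 change of all genes was 0.63, while the median log2 ratio of the plain reads was 0.04 for main and 0.78 for pilot sums, so a fitted change near 0.63 is that of the median gene. All 6 calls were lost when either pilot sum was left out: edgeR called 0 genes without the pilot Egfp-high sum (1.06% at an unadjusted p under 0.05) and 0 without the pilot Egfp-low sum (2.68%), which held 3 cells. Without the main Egfp-low sum 582 genes were called, with the median fitted change of all genes at 2.25 and Cntn2 no longer among the calls, and without the main Egfp-high sum 5 were called, of which 1 (Cntn2) was among the 6.

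The comparison was also made over sums per plate with the plate as a term; plates of an experiment share its culture, so those p-values measure the spread between plates and not between cultures. Over all 6 plates 50 of 10462 genes were called, 0.478% (41 rose, 9 fell). Over the 4 main plates, a comparison added after the data were seen, 53 of 9989 genes were called, 0.531% (32 rose, 21 fell). The median fitted log2 change of all genes was 1.26 over the 6 plates and 0.63 over the 4 main plates. Rises and falls over the plates stand beside these medians and not beside 0. The 2 plate comparisons shared 35 calls, and each called 5 of the 6 genes above the same way, leaving out Slc25a47. Genes whose Egfp-high value lay above the Egfp-low value on every plate, whichever plates were set against each other, numbered 84, 0.803% of the 10462, and genes that lay below in this way numbered 4, 0.0382%. These 2 counts are not alike in reach. To lie below, a gene must be read in the 1 Egfp-low cell of plate TM018 and in the 2 of plate TM017. The Egfp-high sums of these plates held 4 and 8 cells.

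Isl1, the LIM factor that motor neurons need, was the 1 motor neuron factor of 8 called over all 6 plates (edgeR adjusted p 0.00529). Isl1 (chromosome 13, 116298281 to 116309689, minus strand) had 163.9 CPM in main and 132.9 CPM in pilot Egfp-high neurons, against 11.2 CPM in main and 0 CPM in pilot Egfp-low neurons. By plate it held between 62.8 and 364.9 CPM (median 174.02) in Egfp-high neurons and between 0 and 33.03 CPM (median 0.341) in Egfp-low neurons, so the groups did not overlap. The fitted log2 change was 5.58 ± 1.22 (SE), with an adjusted p of 0.124 in edgeR over the experiments, which does not pass, and 6.83 ± 1.61 with an adjusted p of 0.0303 over the main plates. Most of the Isl1 reads in Egfp-low neurons came from 1 cell, which held 52 of 58, on plate RPI39; without that plate, a choice made after the data were seen, the change was called at 9.22 on the log2 scale (adjusted p 0.0015). In the pilot Egfp-high neurons 1 of 12 cells gave 56.6% of the Isl1 reads.

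To compare single cells at equal depth, each cell was thinned at random to 10000 reads, and shares are given with 95% Wilson intervals that cover counting error only. An Isl1 read was found in 31 of 87 Egfp-high neurons (35.6%, 26.4% to 46.1%) and in 43.97% of eGFP++ neurons, against 2 of 36 Egfp-low neurons (5.56%, 1.54% to 18.1%). Before thinning, 51.7% of Egfp-high neurons held a read of Isl1.

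Isl2, a LIM factor close to Isl1 that acts in motor neurons of the limb and trunk columns, had 84.5 and 28.5 CPM in main and pilot Egfp-high neurons, against 0.194 CPM (1 read) in main and 0 CPM in pilot Egfp-low neurons. It was read in 18 of 87 Egfp-high neurons (20.7%, 13.5% to 30.4%) and in 0 of 36 Egfp-low neurons, which allows a share of up to 8.33%. Its fitted change of 8.95 ± 2.84 did not pass over the experiments (edgeR adjusted p 0.775) and passed over the main plates at 8.69 (adjusted p 0.0263). Mnx1, the homeodomain factor that holds interneuron genes down in motor neurons, was low throughout, at 13.4 and 21.2 CPM in Egfp-high neurons, against 3.68 and 1.18 CPM in Egfp-low neurons. The plates overlapped and the fitted Mnx1 change of 3.36 ± 2.78 did not pass (edgeR adjusted p 1). Lhx4, a LIM factor that works beside Lhx3, had 13.2 and 9.84 CPM against 2.32 and 0 CPM and did not pass either.

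Lhx3 did not separate the groups. Lhx3 (chromosome 2, 26200212 to 26208289, minus strand) had 111.1 CPM in main and 111.2 CPM in pilot Egfp-high neurons, against 169.3 CPM in main and 0 CPM in pilot Egfp-low neurons. Plates overlapped throughout, from 0.319 to 169.2 CPM in Egfp-high and from 0 to 226.3 CPM in Egfp-low neurons, and Lhx3 was higher in Egfp-high neurons on 3 of 6 plates. The fitted Lhx3 change was 0.90 ± 1.32 (edgeR adjusted p 1), and over the main plates it was -0.64 ± 0.75 (adjusted p 0.993). Thinned cells held a Lhx3 read in 22 of 87 Egfp-high neurons (25.3%, 17.3% to 35.3%) and 39.2% of eGFP++ neurons, against 11 of 36 Egfp-low neurons (30.6%, 18% to 46.9%).

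Lhx3 was also counted by whether its cell held Isl1, which was read in 35.6% of Egfp-high and 5.56% of Egfp-low neurons. Of the 22 Egfp-high neurons with a Lhx3 read, 11 also held an Isl1 read and 11 did not, and 0 of the 11 Egfp-low neurons with Lhx3 held Isl1; a link between the genes beyond these shares was not tested. In eGFP++ neurons 44 of the 91 with Lhx3 also held Isl1. Lhx3 shared a cell with Gata2, Gata3 or Tal1 in 2 Egfp-low neurons. These counts were made without a test, since cells of a culture are not replicates. A read missing at this depth does not show that a gene was silent in the cell.

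Lhx1, known from the lateral limb motor neurons and from many interneurons, was read on both sides. Lhx1 (chromosome 11, 84518284 to 84525535, minus strand) had 91.998 and 46.4 CPM in Egfp-high neurons, against 217.9 CPM in main and 1.18 CPM in pilot Egfp-low neurons. Its plates ran from 0 to 150 CPM in Egfp-high and from 0 to 425.6 CPM in Egfp-low neurons, with Lhx1 higher on 2 plates, lower on 3 and at 0 in both groups on plate TM018. The fitted change of Lhx1 was 0.41 ± 1.57 (edgeR adjusted p 1) over the experiments and -1.12 ± 1.04 (adjusted p 0.979) over the main plates, so not even its sign was fixed. Thinned cells held a Lhx1 read in 15 of 87 Egfp-high neurons (17.2%, 10.7% to 26.5%) and 10.8% of eGFP++ neurons, against 11 of 36 Egfp-low neurons (30.6%, 18% to 46.9%). Isl1 and Lhx1 met in 2 Egfp-high, 13 eGFP++ and 1 Egfp-low neuron. Of the 8 motor neuron factors listed, all tested, 0 rose and 0 fell over the experiments, with a median fitted change of 2.13 against 0.63 for all genes. Over the main plates 2 rose (Isl1 and Isl2). The list summed to 417.4 and 305.1 CPM in main and pilot Egfp-high neurons, against 478.8 and 1.77 CPM in Egfp-low neurons. Its plates overlapped (286.9 to 465.6 against 0 to 1196 CPM). Among main sums 5 of 8 members were higher in Egfp-high neurons, and among pilot sums 5 of 7.

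**Figure D2:**
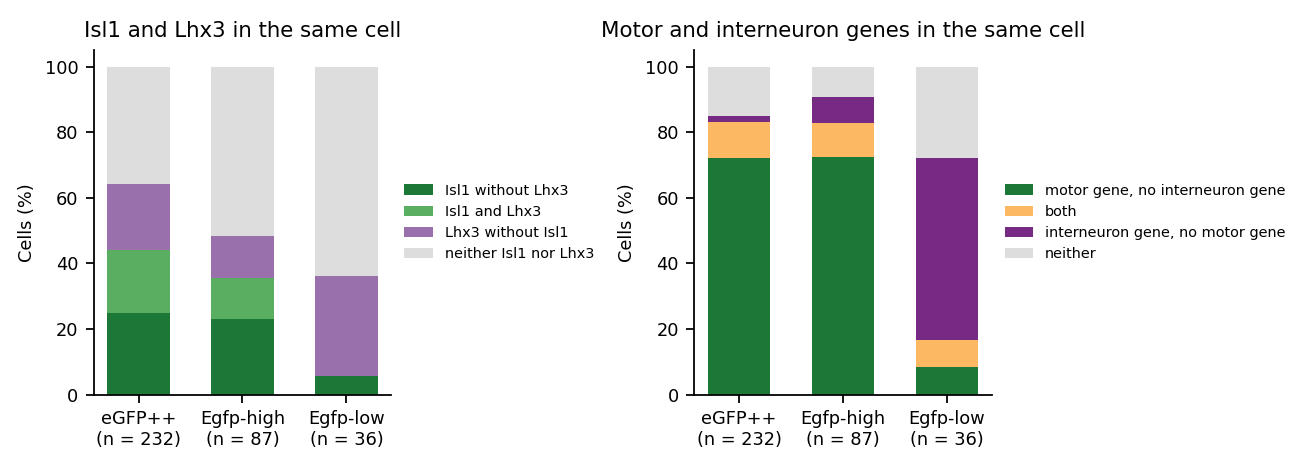
Left, the percent of neurons with a read of Isl1, of Lhx3, of both or of neither after thinning to 10000 reads. Right, the same for any of 6 motor genes (Isl1, Isl2, Mnx1, Slc18a3, Slc5a7 and Chat) and any of 9 interneuron genes (Gata2, Gata3, Tal1, Lhx5, Slc32a1, Gad1, Gad2, Pax2 and Lhx1). Isl1 and Lhx3 share a cell in 12.6% of Egfp-high and 18.97% of eGFP++ neurons and in 0 of 36 Egfp-low neurons.

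Of the 11 genes of cholinergic transmission tested, 1 rose (Slc10a4) and 0 fell over the experiments, with a median fitted change of 1.25 beside 0.63 for all genes. Of those measured, 4 of 10 were higher in Egfp-high neurons in main sums (median log2 ratio -0.36) and 7 of 9 in pilot sums (median 1.78). The list summed to 962 and 1396 CPM in main and pilot Egfp-high neurons, against 648 and 399.1 CPM in Egfp-low neurons. Slc10a4 (chromosome 5, 73006883 to 73012955, plus strand), a vesicular membrane protein found in cholinergic and monoaminergic terminals, had 537.8 and 503.2 CPM in main and pilot Egfp-high neurons, against 37.8 and 6.48 CPM in Egfp-low neurons. Its plates held between 416.4 and 790 CPM in Egfp-high and between 0 and 104.05 CPM in Egfp-low neurons, without overlap. Slc10a4 rose over the experiments by 4.76 ± 0.91 log2 units (adjusted p 0.0266, edgeR), and by 4.89 ± 0.88 over the main plates (adjusted p 0.00165); without plate RPI39 the adjusted p over the experiments was 0.110. A Slc10a4 read was found in 65 of 87 Egfp-high neurons (74.7%, 64.7% to 82.7%) and 71.98% of eGFP++ neurons, against 3 of 36 Egfp-low neurons (8.33%, 2.87% to 21.8%).

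Slc18a3, the vesicular acetylcholine transporter (chromosome 14, 32462438 to 32464850, minus strand), had 216.3 and 305.03 CPM in Egfp-high neurons, against 11.04 and 89.01 CPM in Egfp-low neurons. By plate the values were 144.6 to 342.6 CPM against 0 to 117.2 CPM, again without overlap. Its fitted change of 2.81 ± 0.97 did not pass over the experiments (edgeR adjusted p 1) but passed over the main plates at 7.07 ± 1.32 (adjusted p 0.00247) and over all 6 plates (adjusted p 0.00817). The thinned share was 55 of 87 Egfp-high (63.2%) and 60.3% of eGFP++ neurons, against 2 of 36 Egfp-low neurons (5.56%). All pilot Egfp-low reads of Slc18a3 came from 1 cell. Slc18a3 lies within the span of Chat on the same strand, so how the authors' counting split their reads is uncertain; Chat itself had 44.8 and 17.99 CPM against 5.81 and 12.4 CPM and did not pass. Slc10a4 and Slc18a3 shared a cell in 42 of 87 Egfp-high and 0 of 36 Egfp-low neurons, and 78 Egfp-high and 5 Egfp-low neurons held at least 1 of them.

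Cntn2 (chromosome 1, 132509427 to 132543256, minus strand), also known as TAG-1, is an adhesion molecule of young motor and commissural axons. It had 986 and 1607 CPM in main and pilot Egfp-high neurons, against 57.1 and 323.6 CPM in Egfp-low neurons. Its plates held 758 to 1885 CPM in Egfp-high and 0 to 426.1 CPM in Egfp-low neurons, and did not overlap. Cntn2 rose by 3.17 ± 0.58 (edgeR adjusted p 0.0266) and by 4.23 ± 0.50 over the main plates (adjusted p 1.17e-06). It was read in 71 of 87 Egfp-high neurons (81.6%, 72.2% to 88.4%) and 90.5% of eGFP++ neurons, against 7 of 36 Egfp-low neurons (19.4%, 9.75% to 35.03%). In the pilot Egfp-low neurons 1 cell gave 99.8% of the Cntn2 reads.

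Dlk1 (chromosome 12, 109452823 to 109463336, plus strand), a Delta-like transmembrane protein known from fast motor neurons, had 1377 and 638 CPM in Egfp-high neurons, against 164.6 and 51.3 CPM in Egfp-low neurons. Dlk1 was higher in Egfp-high neurons on 6 of 6 plates, but the lowest Egfp-high plate, at 140 CPM, lay below the highest Egfp-low plate, at 418.2 CPM. It rose by 3.44 ± 0.65 (edgeR adjusted p 0.0266) and by 4.65 ± 0.65 over the main plates (adjusted p 4.54e-05). A Dlk1 read was found in 61 of 87 Egfp-high neurons (70.1%) and 67.2% of eGFP++ neurons, against 15 of 36 Egfp-low neurons (41.7%), the least marked split of the 3 genes.

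**Figure D3:**
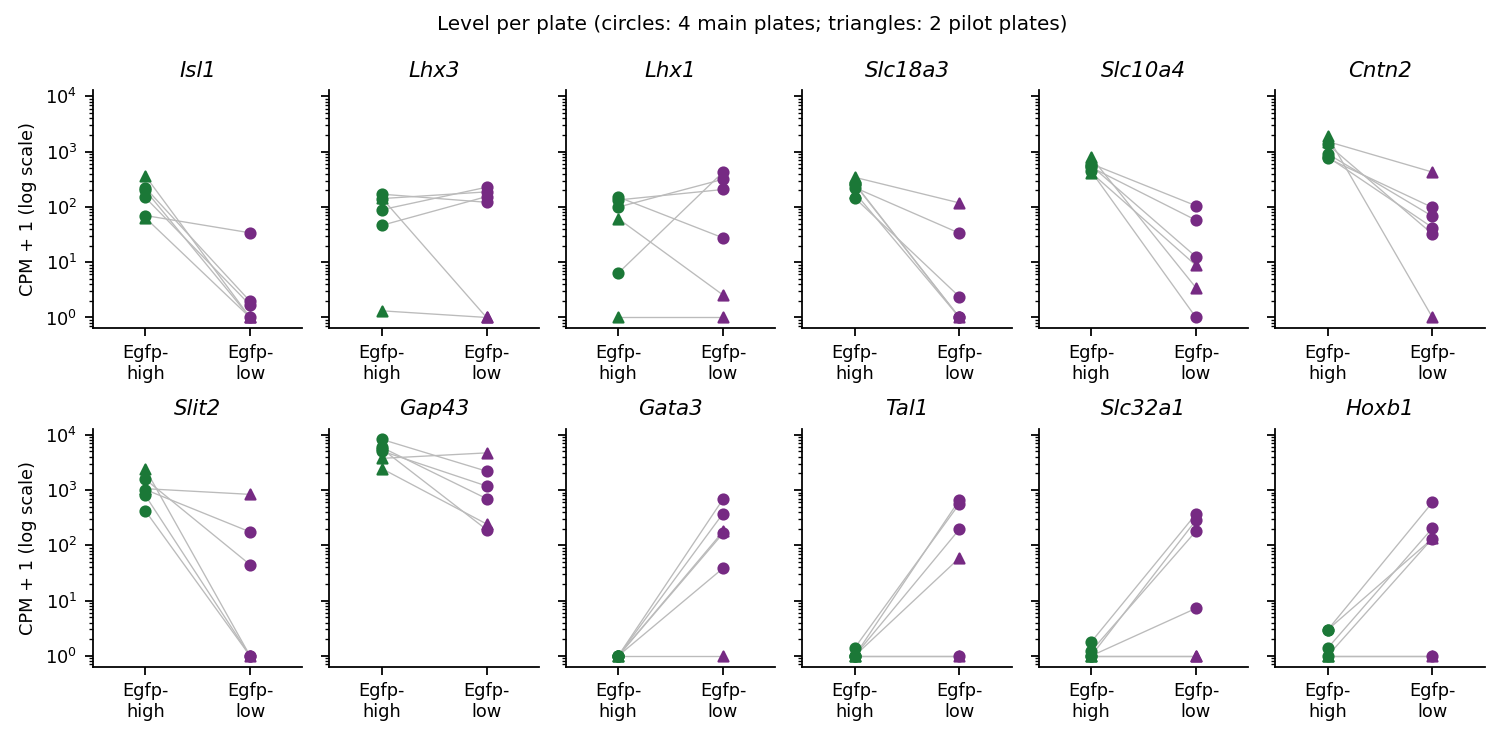
Level of 12 genes on each of 6 plates (CPM + 1, log axis) in Egfp-high neurons (left of each panel) and Egfp-low neurons (right), with a grey line for each plate, circles for main and triangles for pilot plates. Isl1, Slc18a3, Slc10a4 and Cntn2 do not overlap between the groups, Lhx3 and Lhx1 cross, and Gata3 is at 0 in Egfp-high neurons of every plate.

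The V2b factors stood on the other side. Gata3 (chromosome 2, 9857078 to 9890034, minus strand) had 0 reads in the Egfp-high neurons of both experiments, against 352.5 CPM in main and 134.4 CPM in pilot Egfp-low neurons. By plate the Egfp-low neurons held between 0 and 681 CPM (median 170), with 1 of 6 plates at 0. Set against a floor of 3 reads per sum, Gata3 was at least 1678-fold lower in the main and at least 605-fold lower in the pilot Egfp-high neurons. The fitted change of -15.33 ± 2.896 (edgeR adjusted p 0.0266) depends on the prior count and is no bound; over the main plates the adjusted p was 3.94e-07, and without plate RPI39 the adjusted p over the experiments was 0.0851. Gata3 is also 1 of 4 serotonergic markers listed. Of the others, Fev and Lmx1b were at 0 in all these sums, and Tph2, which makes serotonin, was at 0 in Egfp-high neurons, against 8.33 CPM in main and 0 CPM in pilot Egfp-low neurons; the part of such cells was not tested.

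Tal1 (chromosome 4, 115056426 to 115071755, plus strand), the basic helix-loop-helix factor of V2b cells, had 1 read in main and 0 in pilot Egfp-high neurons, against 375.1 and 44.2 CPM in Egfp-low neurons. Egfp-low plates held 0 to 664 CPM (median 126.6), and Tal1 was lower in the Egfp-high neurons on 4 of 6 plates. Tal1 fell, with a fitted change of -13.44 ± 2.50 (edgeR adjusted p 0.0266) and of -11.00 ± 1.26 over the main plates (adjusted p 1.16e-06). The calls of Gata3 and Tal1 over the experiments were lost with Egfp at 500 CPM against 0 reads, with Stmn2 at 100 CPM and with Stmn2 at 1500 CPM. The pilot reads of Gata3 and of Tal1 came from 1 of the 3 pilot Egfp-low cells each, while in the main experiment 13 of 33 cells held each gene. Gata2, which precedes Gata3 in the V2b line, had 0.0700 CPM (1 read) in main and 0 in pilot Egfp-high neurons, against 59.1 and 0 CPM in Egfp-low neurons, and did not pass.

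After thinning, 14 of 36 Egfp-low neurons (38.9%) held Gata2, Gata3 or Tal1, against 0 of 87 Egfp-high neurons, which allows up to 3.45%, and 0 eGFP++ neurons. They came from 5 of the 6 plates: 5 from RPI39, 4 from RPI37, 3 from RPI38 and 1 each from RPI40 and TM017. Of these 14 cells, 10 also held Slc32a1, 9 held Gata3 and Tal1 together, 5 held Lhx1, 6 held Hoxb1 and 0 held any of the 6 motor genes. Of the 30 interneuron transcription factors listed, 21 were tested, of which 0 rose and 2 fell, with a median fitted change of -5.92; among main sums 0 of 19 measured members were higher in Egfp-high neurons, beside 6443 of 12594 genes in all, and among pilot sums 2 of 7, beside 6299 of 10305. The list summed to 297.6 and 682 CPM in main and pilot Egfp-high neurons, against 1956 and 580 CPM in Egfp-low neurons. Lhx5, a relative of Lhx1 found in interneurons, had 1.54 and 0 CPM in Egfp-high neurons, against 235.7 CPM in main and 0 CPM in pilot Egfp-low neurons. It did not pass over the experiments (edgeR adjusted p 1) and fell over the main plates (-8.15 ± 1.33, adjusted p 5.76e-04).

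Slc32a1, the vesicular GABA and glycine transporter (chromosome 2, 158610767 to 158615748), had 0.210 CPM (3 reads) in main and 0 CPM in pilot Egfp-high neurons, against 230 CPM in main and 0 CPM in pilot Egfp-low neurons. It was read in 0 of 87 thinned Egfp-high neurons and 2 eGFP++ neurons (0.862%), against 13 of 36 Egfp-low neurons (36.1%, 22.5% to 52.4%). Its fitted change of -9.53 ± 3.74 did not pass over the experiments (edgeR adjusted p 1), and Slc32a1 fell over the main plates (-9.33 ± 1.34, adjusted p 6.43e-05). Gad1 and Gad2, the GABA-making enzymes, had 0 and 3.01 CPM in main Egfp-high neurons, against 42.6 and 200.1 CPM in main Egfp-low neurons, and neither passed. In the pilot experiment both had 0 reads in Egfp-low neurons, while Egfp-high neurons held 0 reads of Gad1 and 10 of Gad2. Of the 8 GABA and glycine genes tested, 0 rose and 0 fell. The list summed to 62.8 and 33.8 CPM in main and pilot Egfp-high neurons, against 528.3 and 13.6 CPM in Egfp-low neurons. Slc17a6, the vesicular glutamate transporter of spinal excitatory neurons, had 0 CPM in Egfp-high and 3.68 CPM in Egfp-low main neurons, and 0 of the 5 glutamate genes tested passed.

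**Figure D4:**
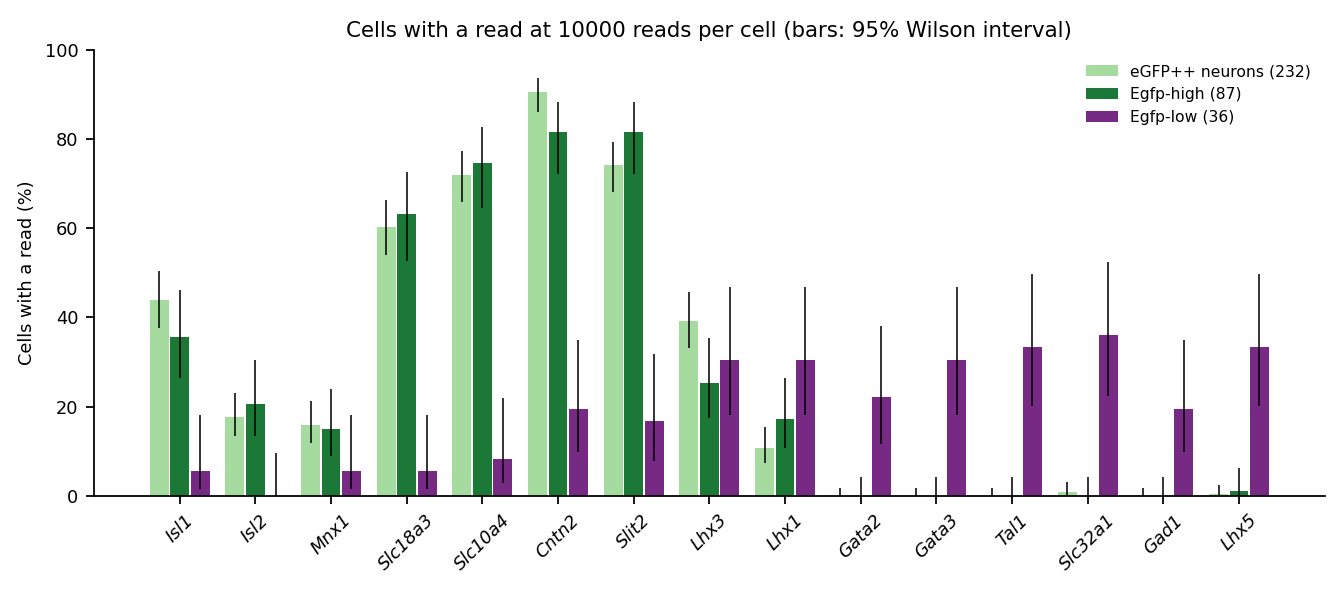
Percent of neurons with a read of each of 15 genes after thinning each cell to 10000 reads, for eGFP++, Egfp-high and Egfp-low neurons, with 95% Wilson intervals. Isl1, Slc18a3, Slc10a4, Cntn2 and Slit2 are read more often in eGFP++ and Egfp-high than in Egfp-low neurons, Lhx3 is read in 25.3% of Egfp-high and 30.6% of Egfp-low neurons, and Gata3 and Tal1 in Egfp-low neurons alone.

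Read cell by cell, 63 of 87 Egfp-high neurons held a motor gene and no interneuron gene, 7 the reverse, 9 both and 8 neither. Of the 36 Egfp-low neurons, 3 held a motor gene alone, 20 an interneuron gene alone, 3 both and 10 neither. The eGFP++ neurons divided into 71.98%, 1.72%, 11.2% and 15.1% in the same order. Within the Egfp-high neurons, Egfp reached a median of 8342 CPM in cells with Isl1 and 9221 CPM in cells without it, 11443 CPM with Lhx3 and 7590 CPM without, and 9494 CPM with Slc18a3 and 6734 CPM without. Markers of other cell types were also read. Progenitor markers summed to 153.2 and 37.3 CPM in Egfp-high neurons, against 308.3 and 578 CPM in Egfp-low neurons. Cycling markers summed to 194.4 and 144.6 CPM against 652 and 394.9 CPM. The wider list of 21 neural progenitor genes did not follow this in main sums, with 992 CPM in Egfp-high and 946 CPM in Egfp-low neurons. In pilot sums that list was also lower in Egfp-high neurons. Single cells weighed on the Egfp-low values. In pilot Egfp-low neurons 1 cell gave 98.1% of the reads of Hes5, a progenitor gene. All pilot Egfp-low reads of Top2a, a cycling gene, came from 1 cell, and 1 cell gave 75.1% of the main ones. The part of progenitor and cycling cells in the differences was not tested.

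The eGFP++ neurons, which their own label and not their Egfp reads chose, were set against the same Egfp-low sums, so the 2 comparisons share them and are given side by side only. Of 14297 genes 7 were called, 0.049%: Cntn2, Isl1, Slc10a4, Bckdhb, Dlk1 and Arhgap36 rose and Tal1 fell. Bckdhb had 22.01 and 401.06 CPM in main and pilot eGFP++ neurons, against 0 reads in Egfp-low neurons, and 1 cell gave 99.9% of its pilot eGFP++ reads. Isl1 had 330.7 and 362.2 CPM in main and pilot eGFP++ neurons and rose by 7.04 (edgeR adjusted p 0.0217). Slc10a4 had 460.6 and 631 CPM and rose by 4.98 (adjusted p 0.0217), Cntn2 had 2035 and 1368 CPM and rose by 3.84 (adjusted p 0.00632), and Dlk1 had 659 and 741 CPM and rose by 3.27 (adjusted p 0.0425). Tal1 had 0 reads in eGFP++ neurons and fell (adjusted p 0.0160), while Gata3, with 1 read in the pilot eGFP++ neurons, missed the threshold (adjusted p 0.0570). Lhx3 was 251.7 and 295.1 CPM in eGFP++ neurons, and Lhx1 53.9 and 15.9 CPM. The 7 calls were likewise lost when the pilot Egfp-low sum was left out, while 796 genes were called without the main Egfp-low sum, and 59 and 3 without the main and the pilot eGFP++ sums.

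Slc25a47, a mitochondrial carrier known from liver, was the remaining call and rests on single cells. It had 0 reads in Egfp-high neurons of both experiments, against 85.02 CPM in main and 229.3 CPM in pilot Egfp-low neurons, and all of these reads came from 1 main cell and 1 pilot cell. The eGFP++ neurons held 1.42 and 42.2 CPM. Over the 6 plates its adjusted p was 0.109 (edgeR).

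Genes of the growing axon had higher values in Egfp-high neurons of the main experiment. Gap43, a growth cone protein, had 5974 and 3446 CPM in Egfp-high neurons, against 1234 and 3632 CPM in Egfp-low neurons. In the pilot Egfp-low neurons 1 of 3 cells gave 98.4% of the Gap43 reads. Gap43 was higher in Egfp-high neurons on 5 of 6 plates. It was read in 83 of 87 thinned Egfp-high neurons (95.4%), against 17 of 36 Egfp-low neurons (47.2%). Its fitted change was 1.24 ± 0.37 (edgeR adjusted p 0.607), and Gap43 rose over the main plates by 3.07 ± 0.29 (adjusted p 2.13e-08). The neurofilament light chain Nefl had 1171 and 1808 CPM against 355.2 and 1052 CPM, was higher on 6 of 6 plates and rose over the main plates by 1.98 ± 0.38 (adjusted p 0.00325). The medium chain Nefm had 3175 and 8430 CPM against 1151 and 7733 CPM and rose over the main plates by 2.31 ± 0.40 (adjusted p 0.00119). Neither passed over the experiments. Of 27 pan-neuronal genes tested, 0 passed over the experiments, and 23 (main) and 13 (pilot) were higher in Egfp-high neurons, with median log2 ratios of 0.31 and -0.08 beside 0.04 and 0.78 for all genes. The Stmn2 reads that chose the neurons had medians of 2338 and 2650 CPM in Egfp-high and 1447 and 2142 CPM in Egfp-low neurons.

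Among 39 axon guidance and adhesion genes tested, 1 rose (Cntn2) and 0 fell over the experiments. Slit2, a secreted guidance cue made by floor plate and motor neurons, came next with 1011 and 1374 CPM in Egfp-high neurons, against 65.3 and 634 CPM in Egfp-low neurons. It was higher on 6 of 6 plates with overlapping ranges, 421.1 to 2414 CPM against 0 to 835 CPM, and did not pass over the experiments (2.51 ± 0.60, edgeR adjusted p 0.216). Slit2 rose over the main plates by 6.62 ± 0.95 (adjusted p 6.43e-05) and was read in 71 of 87 Egfp-high neurons (81.6%) and 74.1% of eGFP++ neurons, against 6 of 36 Egfp-low neurons. All pilot Egfp-low reads of Slit2 came from 1 cell. Chl1, an L1-type adhesion molecule, had 0.420 and 0 CPM in Egfp-high neurons, against 102.3 and 0 CPM in Egfp-low neurons, and fell over the main plates (adjusted p 0.0438).

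Of the 16 motor column and visceral motor genes tested, 0 passed over the experiments. Th, which makes the precursor of the catecholamines, had 519.2 and 340.6 CPM in Egfp-high neurons, against 59.5 and 0 CPM in Egfp-low neurons, without overlap over the plates (112.8 to 663 against 0 to 97.5 CPM). It was read in 66 of 87 Egfp-high neurons (75.9%) and 70.3% of eGFP++ neurons, against 6 of 36 Egfp-low neurons. Its change of 4.88 ± 1.19 did not pass over the experiments (edgeR adjusted p 0.216), and Th rose over the main plates by 4.06 ± 0.82 (adjusted p 0.00566).

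Of 18 neuropeptide and granule genes tested, 0 passed over the experiments. Among main sums 6 of 16 measured members were higher in Egfp-high neurons, beside 6443 of 12594 genes in all. Among pilot sums 9 of 13 were, beside 6299 of 10305. The peptide gene Sst had 125.3 and 240 CPM in Egfp-high neurons, against 2.13 and 41.3 CPM in Egfp-low neurons, and rose over the main plates by 7.77 ± 1.73 (edgeR adjusted p 0.0176). Before thinning, 10 of 75 main Egfp-high neurons held a Sst read, and 1 of them gave 44.6% of the reads. In the pilot Egfp-high neurons 1 cell gave 51.9%. Cartpt, another peptide gene, had 9.52 and 0 CPM in Egfp-high neurons, against 318.4 and 120 CPM in Egfp-low neurons. It was lower in Egfp-high neurons on 5 of 6 plates, did not pass over the experiments (-8.78 ± 2.48, adjusted p 0.455) and fell over the main plates (-4.96 ± 1.05, adjusted p 0.00930).

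Among the Hox genes, which record position along the body axis, most had lower values in Egfp-high neurons of the main experiment but not of the pilot experiment. Hoxb1, a hindbrain gene, had 1.05 and 0 CPM in Egfp-high neurons, against 254.1 and 100.8 CPM in Egfp-low neurons. It was read in 2 of 87 Egfp-high neurons and 1 eGFP++ neuron (0.431%), against 9 of 36 Egfp-low neurons (25%), although 1 main cell gave 66.8% of its main Egfp-low reads. Hoxb1 did not pass over the experiments (-8.65 ± 2.22, edgeR adjusted p 0.294) and fell over the main plates (-7.32 ± 1.25, adjusted p 0.00119). Among main sums 0 of 7 measured genes of Hox groups 1 to 3 and 1 of 12 of groups 4 to 8 were higher in Egfp-high neurons, beside 6443 of 12594 genes in all. Among pilot sums 3 of 7 and 8 of 13 were higher, beside 6299 of 10305. Over the experiments, 0 of the 8 and 0 of the 14 genes tested on these lists passed. Hoxb9, which stands outside the lists and was picked after its values were seen, had 44.04 and 1.78 CPM in Egfp-high neurons, against 482.1 and 394.9 CPM in Egfp-low neurons. Hoxb9 was read in 10 of 87 Egfp-high neurons and 20 eGFP++ neurons (8.62%), against 26 of 36 Egfp-low neurons (72.2%). It did not pass over the experiments (edgeR adjusted p 0.216) and fell over the main plates (-3.49 ± 0.69, adjusted p 0.00505).

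Other genes picked after their values were seen were called over the main plates. The nuclear receptor Nr2f2 had 360 and 328.9 CPM in Egfp-high neurons, against 36.2 and 99.6 CPM in Egfp-low neurons, without overlap over the plates, and rose over the main plates by 4.10 ± 0.76 (edgeR adjusted p 0.00247). Crabp1, a carrier of retinoic acid, went the other way in the main experiment only, with 47.6 CPM in Egfp-high and 532.99 CPM in Egfp-low neurons against 274.8 and 229.3 CPM in the pilot experiment, and fell over the main plates (adjusted p 0.0488).

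The remaining lists held no gene that passed over the experiments. These were 20 tested neural progenitor genes, 23 newborn neuron and Notch genes, 15 growth factor receptors, 25 ion channels, 18 synaptic vesicle genes, 26 cell cycle genes, 5 neurofilament genes and 18 immediate early and stress genes, with median fitted changes between -0.41 (cell cycle) and 1.32 (neurofilaments) beside 0.63 for all genes. Over the main plates the same lists held 2 rises, Nefl and Nefm, and 0 falls. Sncg, gamma-synuclein, lay lower in Egfp-high neurons on 6 of 6 plates, with 694 and 1403 CPM against 1078 and 4315 CPM, but its fitted change of -1.14 ± 0.51 did not pass (edgeR adjusted p 1). Gfra1, the GDNF co-receptor, was lower on all 6 plates without overlap, with 27.3 and 13.4 CPM against 121.6 and 131.5 CPM, and did not pass either.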

How the data were processed

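Per the labels' protocols, embryoid bodies were dissociated, single cells were sorted into plates and libraries were made by a modified CEL-seq. The authors deposited 1 table of raw read counts per plate, without molecular identifiers; per the submitters' processing notes TopHat2 2.1.1, HTSeq 0.6.1 and mm10 were used, with no roles given. Each of the 35 tables used has 24092 rows, of which 23968 genes were analysed, 27 rows with names turned into dates (0.121% of gene reads) and 92 spike-in rows (6.16% of all reads) stayed out of library sizes, and 5 summary rows took 34.9% of reads. Another 40 columns matched no sample and were not used. The tables have no header or barcodes, so a cell was tied to its plate only; 1 cell was sorted per well and no doublet caller was run.

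Members were found with the 500 gene, 500 CPM Stmn2, 1000 CPM and 100 CPM Egfp cutoffs. Reads were summed per class and experiment (9 sums, a class of 1 pilot cell left out) and tested with edgeR 4.0.16 in R 4.3.3: filterByExpr, TMM, a quasi-likelihood model of class plus experiment with 3 residual degrees of freedom, two-sided, Benjamini-Hochberg over all genes except Egfp and Stmn2, threshold 0.05. The fit had a common dispersion of 1.29 and a prior count of 0.125. The cells summed held 14300294 and 13529212 gene reads (main and pilot Egfp-high) and 5171088 and 1698109 (Egfp-low). These totals count the 27 rows that the tested sums left out. The numbers pair the samples because high and low cells of an experiment share its plates and culture; after group means were taken out, their deviations correlated at 0.0496 across genes. Tested on simulated sums (13305 genes), the test made 0 false calls among 13120 unchanged genes. Those sums were drawn from the means and dispersions of the same fit. They do not copy sums of few cells in which 1 cell gives most reads of a gene, as for Slc25a47. The count of false calls therefore does not cover such genes. Plates were tested with the plate as a block. DESeq2 1.42.0 was an alternative. Folds against 0 use 3 reads per sum.

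Genes named are those called in the same direction in both experiments with at least 20 CPM in the higher group, Isl1, Lhx3, Lhx1 and Mnx1, and up to 3 members of each list with the smallest p; others are named as picked later, and some genes that the rule names are not reported here. The members and lists were chosen with earlier results of these data known. Levels are deposited counts scaled to 1000000 gene reads and are not corrected for length, so genes are not compared with each other. Coordinates of genes are from GENCODE M21 (GRCm38). Python 3.11.15, scipy 1.17.1 and matplotlib 3.10.9 were used.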

Additional observations from a re-analysis of the deposited data

Results flagged for a closer look

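On plate RPI39, 42.4% of the Stmn2 neurons were Egfp-low, against 24% on the next plate, which stood apart from the other 5 plates. The same plate stood apart in 3 gene levels. In its Egfp-high neurons Tal1 had 0.392 CPM (1 read), against 0 on the other 5 plates. In its Egfp-low neurons Isl1 had 33.03 CPM, against 0.962 CPM on the next plate, and Dlk1 had 418.2 CPM, against 101.97 CPM on the next. On pilot plate TM017 the Egfp-low neurons, 2 cells, held Cntn2 at 426.1 CPM, against 96.8 CPM on the next plate. In all, 19 sets of 6 plates were examined in this way and 5 held a plate far from the others. The nominal chance rate of about 1 in 20 is no yardstick here, because 1 read against 0 on the other 5 plates is always flagged. Some plates also held only 1 or 2 Egfp-low cells. Whether 5 of 19 exceeds chance was not tested.

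Outside the neurons compared, 80 of the Day 6 cells with Stmn2 under 500 CPM held Egfp at 1000 CPM or more, 27.4%, against 0 of the kept Day 2 cells, which allows up to 0.688%. Of these 80 cells, 69 were main and 11 pilot. Among the kept Day 5 cells, at any Stmn2 level, 92 (22.6%) also held Egfp at 1000 CPM or more.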

How the results depend on the processing

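Of the genes tested between Egfp-high and Egfp-low neurons, 0.042% (6) were called. The count was 5 to 9 with DESeq2 size factors, with no filter on low counts, with 1000 genes per cell, with cells thinned to 10000 reads, with Egfp at 500 CPM against 0 reads and without plate RPI39, although with the Egfp cutoffs moved 2 of the 6 were among the 7 called and neither was Gata3 or Tal1. The share called was 0.0138% with Stmn2 at 100 CPM (2 of the 6 among them), 0.242% with Stmn2 at 1500 CPM (3 of the 6), 0.229% with Tubb3 in place of Stmn2, 0.259% with the 2 groups fitted alone with the replicate block, 0.21% with no replicate block, 1.59% with DESeq2 (4 of the 6 among them, 53.9% of the calls rises), 0.478% over 6 plates, 0.531% over the main plates and 0.58% over the main plates without plate RPI39. With a minimum of 20 CPM in 2 sums edgeR called 0 genes, with 2.83% at an unadjusted p under 0.05. Leaving out 1 sum at a time gave 0% to 4.1%: 5 genes (1 of the 6, Cntn2, among them) without the main and 0 without the pilot Egfp-high sum, 582 without the main and 0 without the pilot Egfp-low sum. For eGFP++ against Egfp-low neurons the 7 calls (0.049%) were 7 to 10 with DESeq2 size factors, no filter or no plate RPI39. There the share was 0.04% with the 2 groups alone, 1.87% with DESeq2, 0.322% with no replicate block, 0.229% with thinned cells, 0% with the 20 CPM minimum (3.35% at an unadjusted p under 0.05), and 0% to 5.61% with 1 sum left out (796 genes, all 7 among them, without the main and 0 without the pilot Egfp-low sum, 59 and 3 without the main and pilot eGFP++ sums, with 6 and 1 of the 7 among them). The cause of these moves was not tested.

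The 36 Egfp-low cells became 20 with Egfp at 0 reads, 59 and 17 with Stmn2 at 100 and 1500 CPM, and 20 with Tubb3, while the 87 Egfp-high cells stayed within 1.5 times that number. With all reads, the share of Egfp-high cells with a read became 51.7% for Isl1, 35.6% for Lhx3, 29.9% for Lhx1, 39.1% for Mnx1 and 82.8% for Slc18a3, and that of Egfp-low cells 47.2% for Lhx1. With 5000 reads it became 6.90% for Mnx1 and 50.6% for Slc18a3 in Egfp-high cells, and 0% for Mnx1 in Egfp-low cells. Over 61 named genes and 1122 pairs of a gene and an alternative, 992 kept their side of the threshold and their sign where called. Another 42 lost a call, 88 gained one, and 0 called changes turned round, while 36 pairs had the other sign. Most of the 61 genes were not called at first, so these counts say little about the 6 calls. Those were lost in 5 of 20 alternatives for Cntn2 and Slc10a4 and in 7 of 20 for Dlk1 and Tal1. Gata3 lost its call in 8 of 20 and Slc25a47 in 10 of 18. With 3 pilot Egfp-low cells, the pilot experiment limits every comparison.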
